A study of Drosophila melanogaster with 6 samples.

Results

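The fly apoptosis machinery was followed through 10 genes in adult heads: the cell death activators rpr, hid and grim, their target Diap1, the caspase genes Dronc, Drice and Dcp-1, the apoptosome gene Dark, the TNF ligand gene egr and the JNK phosphatase gene puc. They were chosen by name, and all 10 have a row among the 13541 genes of the authors' deposited table. By the authors' deposited table, 0 of the 10 rose and 0 fell in mir-210 mutant heads with a threshold of 0.05 on adjusted p, where 4.46% of the 11155 tested genes were called. The activators had the largest differences, each with a lower mean in the mutant: rpr at 0.590 of the control mean, hid at 0.567, and grim, at a trace level, at 0.130. For grim this rests on 2 reads in the 3 mutant libraries together and 19 in the controls. These reads are not scaled for depth, which was greater in the controls. The caspases, Diap1, Dark, egr and puc had mutant means between 0.788 and 1.16 of the control means.

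In Drosophila, caspases are held in check by Diap1, a ubiquitin ligase that binds them. The proteins of rpr, hid and grim bind Diap1 and release the caspases, and they are known mainly as genes switched on by transcription in cells that are to die. Dronc, the initiator caspase, is activated on a scaffold formed by Dark and then cleaves the effector caspases Drice and Dcp-1. Egr signals through the kinases of the JNK pathway, which can induce cell death, and puc is both a target of that pathway and its feedback inhibitor. Loss of photoreceptors in the fly retina is a setting in which this machinery has been studied.

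Messenger RNA was sequenced from adult heads of flies labelled miR-210 mutant (line M22-3) and of the white-eyed control strain w1118, with 3 libraries in each group. The allele, the sex and age of the flies and the number of heads per sample are not stated in the sources used here. No label ties the samples to separate fly cultures, so the p-values reflect the spread between libraries alone, and that spread may be technical. The table gives group means of normalized read counts, meaning reads divided by a library's size factor. Reads of single libraries were recovered from these means for 13169 genes (97.3%), among them all 10 described here. They cannot be tied to replicate numbers, so the libraries are called deepest, middle and shallowest by size factor. Reads in genes recovered in all 6 libraries numbered 6257409 to 9194231 per mutant library and 8915003 to 16462836 per control library. The mir-210 gene has no row in the table used here, so its loss could not be read from these values. Whole heads were sequenced, so fewer cells of a type and less RNA per cell cannot be told apart.

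Of the activators, rpr encodes a small protein that binds Diap1. Its normalized count was 9.25, 12.1 and 14.9 in the deepest, middle and shallowest mutant libraries, against 18.6, 14.0 and 28.9 in the controls. The highest mutant library lay just above the lowest control library, so the groups overlapped. Means were 12.1 ± 2.81 in the mutant and 20.5 ± 7.65 in the control (SD, n = 3). The authors' deposited table lists a log2 fold change of -0.77 (adjusted p = 0.732). With limma, a linear model fitted here across all recovered genes on log2(normalized count + 1), the difference was -0.68, with a 95% interval from -1.57 to 0.21. At 29 mutant and 76 control reads in all, the ratio of reads per size factor was 0.587, with a 95% counting interval of 0.369 to 0.911 (exact, for counting error only).

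The second activator, hid, stood at 194, 93.2 and 44.6 in the deepest, middle and shallowest mutant libraries and at 332, 99.5 and 154 in the control libraries. Both groups were spread over several-fold and overlapped widely, and in both the deepest library was the highest. Means were 111 ± 76.3 and 195 ± 121 (SD, n = 3), and the authors' deposited table gives a log2 fold change of -0.82 with an adjusted p of 0.770. The limma interval ran from -2.36 to 0.60 on the log2 scale, the equivalent of 0.195 to 1.52 times the control. Compared within the deepest libraries the difference was -0.77, and within the other libraries it was -0.93. With a term for the deepest libraries in the limma fit, which calls 16% of genes, the adjusted p of hid was 0.0643. This term follows no sample label and was added with earlier results of these data known. Without the shallowest mutant library the difference was -0.35, and without the deepest mutant library it was -1.40, so hid depended strongly on which library was kept.

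The third activator, grim, was barely detected. The mutant libraries held 2, 0 and 0 reads, in the order deepest, middle and shallowest, and the control libraries 7, 4 and 8. In normalized counts these are 2.06, 0 and 0 against 4.06, 3.72 and 7.97. Every control library was above every mutant library. The ratio of reads per size factor was 0.162, with a counting interval of 0.0183 to 0.671. Its log2 fold change of -2.76 (adjusted p = 0.475, authors' deposited table) is a fitted value for a gene at 0 in 2 libraries and depends on how the fit treats zeros. In limma the difference was -2.04 with a pseudocount of 1, -2.67 with 0.5 and -0.85 with 5 (adjusted p from 0.284 to 0.303). With the term for the deepest libraries, which calls 16% of genes, the limma adjusted p of grim was 0.0712. With those libraries left out, a fit that calls 7.58% of genes, it was 0.114. An exact two-sided permutation test over the libraries gave p = 0.1 for grim, the smallest value that 3 against 3 allows.

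Diap1, the inhibitor that these activators bind, was by far the most abundant of the 10. Its mutant libraries stood at 6639.7, 7101 and 7225 and its control libraries at 7078, 8156 and 7065, in the same order. The ranges overlapped, and the mutant mean of 6989 ± 308 lay close to the control mean of 7433 ± 626 (SD, n = 3). The authors' deposited table gives a log2 fold change of -0.09 (adjusted p = 0.939). The limma interval allowed 0.742 to 1.19 times the control, the narrowest range of the 10 genes.

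Dronc, the initiator caspase gene, was measured at 209.6, 219 and 167 in the mutant and 221, 268 and 267 in the control. The ranges did not overlap, but the highest mutant and the lowest control library were close to each other. Means were 198 ± 27.9 and 252 ± 27.0 (SD, n = 3), a log2 fold change of -0.34 (adjusted p = 0.688, authors' deposited table). The limma interval was -0.79 to 0.09. Within the deepest libraries the difference was -0.07, against -0.48 within the others.

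Dark, which encodes the Apaf-1-like scaffold that activates Dronc, varied more within the groups than between them. Its libraries stood at 224, 157 and 87.8 in the mutant and at 250.3, 121 and 142 in the control. Both groups covered nearly the same range, with the deepest library highest in each. The means of 156 ± 68.1 and 171 ± 69.3 (SD, n = 3) gave a log2 fold change of -0.13 (adjusted p = 0.976, authors' deposited table), and the limma interval was wide, from -1.14 to 0.82. The sign turned to 0.20 without the shallowest mutant library and to 0.15 without the deepest control library.

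Of the effector caspases, which cleave the proteins of the dying cell, Drice had the higher level. It was the 1 gene of the 10 with a higher mean in the mutant, at 501, 535 and 543 against 476, 468 and 415. The libraries did not overlap, though the difference was small: means of 526 ± 22 and 453 ± 32.9 (SD, n = 3) and a log2 fold change of 0.21 (adjusted p = 0.782, authors' deposited table). The limma interval ran from -0.13 to 0.57. Dcp-1 stood at 149, 167 and 144 in the mutant and 147, 175 and 178 in the control. Here the ranges overlapped, and the log2 fold change was -0.11 (adjusted p = 0.947, authors' deposited table), with a limma interval from -0.52 to 0.29.

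For the TNF and JNK members, egr, the ligand gene, was at 679, 747 and 854 in the mutant and at 646, 863 and 871 in the control. The mutant values lay inside the control range. The log2 fold change of egr was -0.06 (adjusted p = 0.978, authors' deposited table), and the limma interval allowed 0.705 to 1.31 times the control. The phosphatase gene puc, widely used as a readout of JNK activity, stood at 1002, 732 and 711 in the mutant and 838, 949.6 and 812 in the control. Its deepest mutant library was the highest of the 6 and the other mutant libraries were the lowest. The log2 fold change of puc was -0.09 (adjusted p = 0.967, authors' deposited table), and the limma interval allowed 0.681 to 1.27 times the control. Neither interval holds a 2-fold rise.

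**Figure D1:**
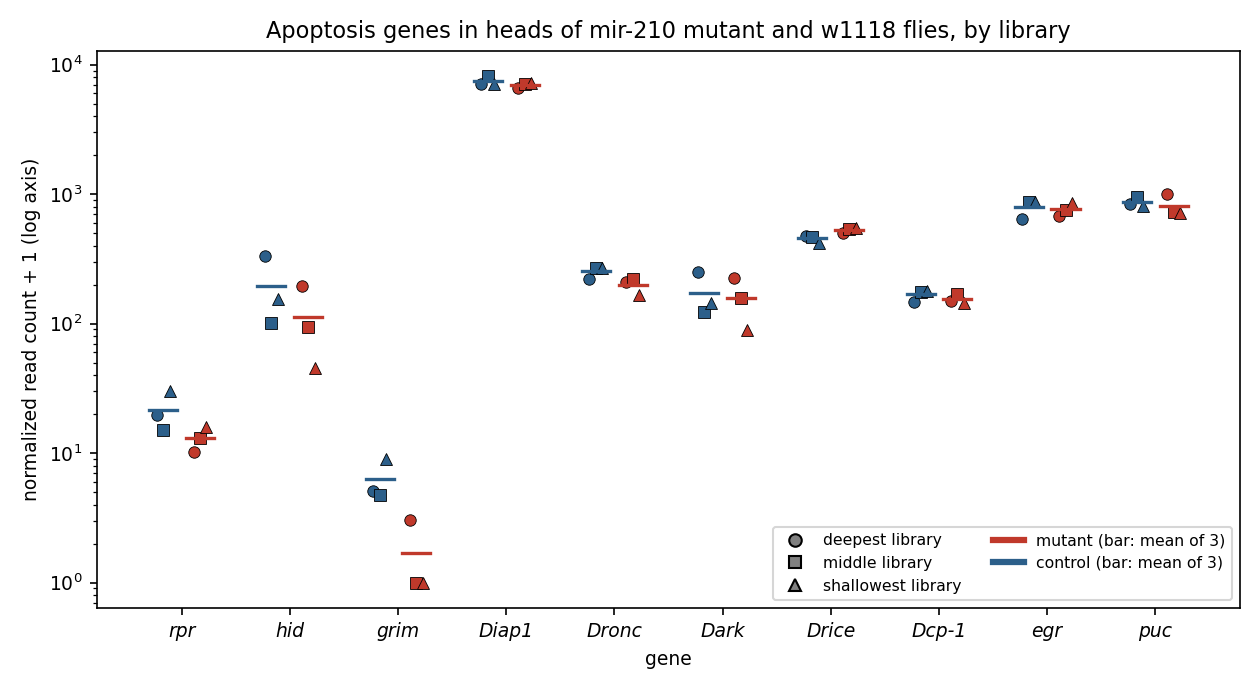
Normalized read count plus 1 (log axis) of each gene in the 3 control (blue) and 3 mutant (red) libraries, with symbols for the deepest, middle and shallowest library and bars for the group means. The groups separate for grim, Dronc and Drice and overlap for the other genes, and hid and Dark are highest in the deepest library of both groups.

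Across the 10 genes, 9 had a lower mean and 1 a higher mean in the mutant, while 6051 of the 11155 tested genes had a negative log2 fold change. Several of the 9 were near 0, with log2 fold changes of -0.09 for Diap1, -0.09 for puc and -0.06 for egr. By the authors' deposited table, the median log2 fold change of the 10 was -0.12, beside -0.04 over all tested genes. At an unadjusted p under 0.05, 0 of the 10 passed in the authors' deposited table, where 12% of all tested genes did. limma called 0 of the 10 at an adjusted p under 0.05 (0.992% of the genes it tested), and 1, grim, at an unadjusted p under 0.05, which 11.2% of those genes passed. The libraries of the groups did not overlap for 3 of the 10, Dronc and grim lower and Drice higher in the mutant, while 18.3% of all tested genes with library values did not overlap. Exact two-sided permutation p-values over the libraries were 0.1 for these 3 genes and from 0.2 to 0.8 for the others. A p that misses the threshold does not show that levels were equal. The limma intervals, on the scale of normalized count + 1, stay between 0.580 and 1.48 times the control for Diap1, Drice, Dcp-1, egr, puc and Dronc. Those of rpr, hid and Dark reach from 0.195 to 1.77. For grim, at so few reads, the interval depends on the pseudocount: its lower limit was -3.57 on the log2 scale with 1 and -4.72 with 0.5.

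**Figure D2:**
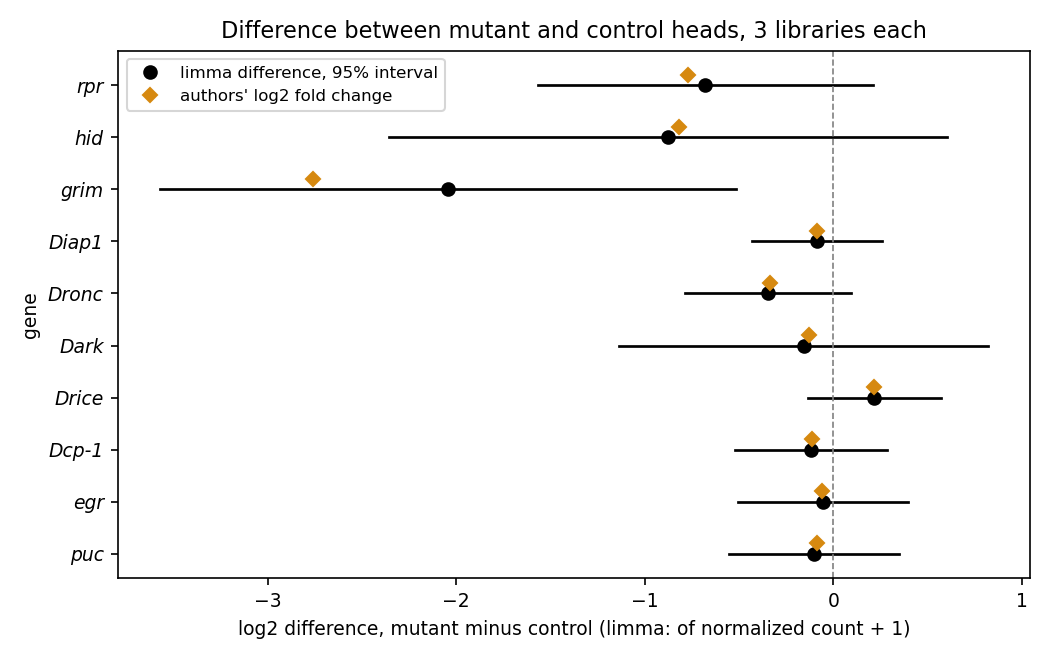
Log2 difference between mutant and control for each gene: limma difference on log2(normalized count + 1) with its 95% interval (black circles and lines) and the authors' log2 fold change (orange diamonds), 3 libraries per group. Intervals are narrow for Diap1, Drice, Dcp-1, egr and puc and wide for grim, hid and Dark; that of grim, from -3.57 to -0.52, is the 1 that does not hold 0, before adjustment over genes.

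Levels can be set beside each other only per length, as normalized counts per 1000 bases of gene model. In control heads Diap1 stood at 2365 ± 199 per 1000 bases (SD, n = 3), egr at 366 ± 58.9 and puc at 273 ± 23.1. Drice followed at 235 ± 17.1, Dronc at 125 ± 13.4 and Dcp-1 at 95.3 ± 9.85. At the lower end were hid at 48.6 ± 30.2, Dark at 35.1 ± 14.2, rpr at 22.7 ± 8.49 and grim at 3.09 ± 1.39 per 1000 bases. Neighbours in this order whose control libraries overlapped were egr and puc, hid and Dark, and Dark and rpr. In the mutant the order was the same except that Drice stood before puc and Dark before hid, and both of those pairs overlapped there. The per-length levels of rpr, hid and grim added together came to 1.20%, 1.62% and 2.83% of that of Diap1 in the mutant, and to 1.64%, 3.35% and 4.69% in the control, from lowest to highest. These ranges overlapped. Among tested protein-coding genes the control level of Diap1 per length was at percentile 93.4, that of Drice at 55.6, and those of rpr and grim at 17.1 and 3.94.

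The deepest library of each group stood apart from the others, and hid and Dark moved with it. On log2(normalized count + 1), hid was higher in the deepest library than in the mean of the others by 1.57 in the mutant and by 1.41 in the control. For Dark these differences were 0.92 and 0.93. The same shift was seen in other long genes: the median difference was 0.83 in the mutant and 0.85 in the control over 2098 tested genes of at least 4000 bases, and -0.14 and -0.15 over 8685 shorter genes. By the authors' deposited table, the median log2 fold change was -0.19 over those long genes and -0.01 over the shorter ones. The gene models of hid and Dark, at 4018 and 4883 bases, are the longest of the 10. Of all tested genes with library values, 3.75% were at least as high as hid in the deepest library of both groups, and 11.3% at least as high as Dark. The remaining genes differed between the deepest and the other libraries by -0.49 (rpr) to 0.47 (puc) in the mutant, grim apart, and by -0.42 (egr) to 0.11 (Drice) in the control. The part of this shift in the spread of hid and Dark was not tested.

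**Figure D3:**
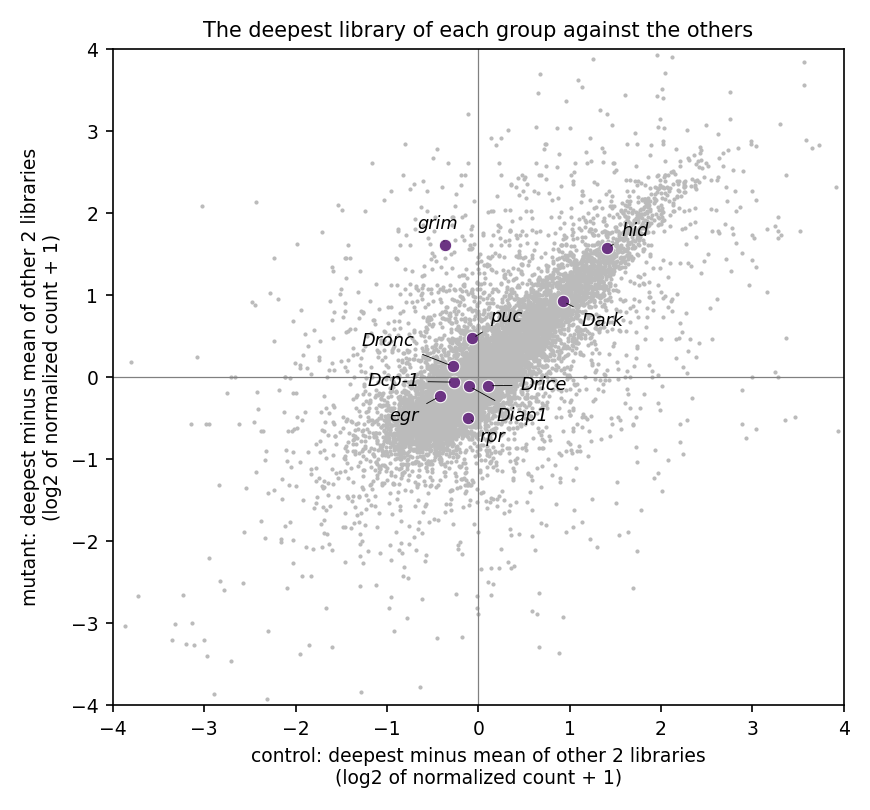
Difference between the deepest library and the mean of the other libraries, on log2(normalized count + 1), in the control (horizontal axis) and in the mutant (vertical axis). Grey points are 10757 tested genes, with 26 more beyond the axes, and purple points are the 10 apoptosis genes; hid (1.41, 1.57) and Dark (0.93, 0.92) lie along the diagonal of genes raised in both deepest libraries.

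Coordinates follow build dm6, and those of all 10 genes in the deposited table are identical to those of the BDGP6 annotation used here. These activators, together with the fourth known activator gene skl, lie in 1 cluster on the minus strand of 3L. From left to right these are hid (18167745 to 18185641), grim (18302719 to 18304417), rpr (18397535 to 18398435) and skl, with 117.1, 93.12 and 40.12 kb between neighbours. The span of 272.2 kb from hid to skl holds 9 rows of the table, of which 5 were tested and 0 were called. Of those 5, CheA75a, chosen after its values were seen, is no activator. Its mean was 30.1 in the mutant and 162 in the control (log2 fold change -2.42, adjusted p = 0.204, authors' deposited table). The direction of CheA75a turned between libraries: it stood at 50.4, 33.9 and 5.95 in the mutant and 11.6, 201 and 274 in the control, higher in the mutant by 2.03 on the log2 scale within the deepest libraries and different by -3.92 within the others. The fourth activator had means of 23.2 and 40.4, with skl libraries of 43.2, 14.5 and 11.9 in the mutant and 51.1, 37.2 and 32.9 in the control. Thus skl overlapped between groups, like rpr and hid, and its log2 fold change was -0.78 (adjusted p = 0.752, authors' deposited table). The 4 activators had a median log2 fold change of -0.80 in the authors' deposited table, with 0 called.

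Elsewhere on 3L lie Dronc (9968479 to 9971002, plus strand) and Diap1 (16038410 to 16051034, minus strand). Drice (29799658 to 29801584) and puc (8105332 to 8122294) are on the plus strand of 3R. Dcp-1 (23551313 to 23553547), Dark (17020027 to 17026703) and egr (10078366 to 10084210) are on the plus strand of 2R. Strand-aware counting is not mentioned by the sources used here, so reads of genes on opposite strands may be mixed. This bears most on Dcp-1, which lies whole within the annotated span of the protein-coding gene pita on the other strand (means of 536 and 638, log2 fold change -0.25, adjusted p = 0.707, authors' deposited table). Noncoding genes overlap grim, Diap1, Dark and puc, and small nucleolar RNA genes lie within egr. Of those noncoding genes that have a row, none exceeded a mean of 8.23 in either group.

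The wider pathway was read from lists of other genes by role. Of 99 listed symbols 97 matched a row, and 85 tested genes remained besides the 10. Of the 85, 1 fell and 0 rose by the authors' deposited table and the same threshold, where 4.46% of all tested genes were called. Beside that share, a count of 0 in any of the short lists below says little about the list. Their median log2 fold change was -0.05, beside -0.04 over all tested genes. The gene that fell was Tab2, whose protein couples the kinase Tak1 to its upstream signals in JNK and immune signalling. Tab2 stood at 1176, 1036 and 1032.5 in the mutant and 1405, 1673 and 1708 in the control, with no overlap, and the authors' deposited table has a log2 fold change of -0.56 with an adjusted p of 0.0447. limma gave -0.56 for Tab2 (adjusted p = 0.227; 0.00814 with the term for the deepest libraries, and 0.0113 without those libraries, a fit that calls 7.58% of genes). Tab2 is 1 of 18 tested TNF and JNK signalling genes, a list that includes egr and puc. Its other genes of lowest p did not pass in the authors' test: bsk, the JNK gene itself (-0.47, adjusted p = 0.101), Traf4, an adaptor gene (-0.53, adjusted p = 0.223), and Mkk4, a JNK kinase gene (-0.45, adjusted p = 0.852), all in the authors' deposited table. With limma and the term for the deepest libraries, all 3 were called lower (adjusted p = 0.0115, 0.0318 and 0.0136), and with those libraries left out only bsk was (adjusted p = 0.0363). The fit with that term called 11 of 86 genes of the wider lists, beside 16% of all genes. Of the 18, 15 had a negative and 3 a positive log2 fold change, with a median of -0.14. Of the 11155 tested genes 6051 had a negative and 5104 a positive one. Tested genes of at least 4000 bases had a median of -0.19, and shorter genes one of -0.01. Several of the 18, namely slpr, wnd, Ask1, msn, hep, Mkk4, kay and raw, are at least that long. The part of gene length in the negative values was not tested.

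Genes induced by JNK signalling, puc included, showed 0 changes among 8 tested, with a median log2 fold change of -0.0021 in the authors' deposited table. Their lowest p-values belonged to scaf (0.23, adjusted p = 0.800), the relaxin-like gene Ilp8 (0.79, adjusted p = 0.869) and the cytokine gene upd3 (-0.76, adjusted p = 0.911) in the authors' deposited table. Means of Ilp8 and upd3 were under 10 in both groups. Of 11 tested genes of p53 and the DNA damage response, 0 changed, with a median of -0.04 in the authors' deposited table. Irbp18, a partner of the stress factor Xrp1, had a log2 fold change of -0.46, the p53 target Corp of -0.38 and the repair gene nbs of 0.24 (adjusted p = 0.656, 0.688 and 0.881, authors' deposited table).

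Among 6 tested caspase genes, Dronc, Drice and Dcp-1 included, 0 changed, with a median of -0.14 in the authors' deposited table. The lowest p was that of Strica, an initiator-type caspase gene, at 39.1, 30.3 and 52.1 in the mutant and 76.6, 66.0 and 73.7 in the control. These libraries did not overlap, and the log2 fold change of Strica was -0.85 (adjusted p = 0.159, authors' deposited table). limma called Strica lower with the term for the deepest libraries (adjusted p = 0.0427), but not with those libraries left out (adjusted p = 0.180). Of 4 inhibitors of apoptosis 0 changed: besides Diap1, the log2 fold change was 0.10 for Diap2 (adjusted p = 0.939) and -0.35 for Det, the fly survivin (adjusted p = 0.882), in the authors' deposited table. Of the Bcl-2 family 0 of 2 changed. Debcl stood at 1042, 1088 and 1180 against 873, 877 and 832 without overlap (log2 fold change 0.36, adjusted p = 0.232, authors' deposited table), and its limma adjusted p was 0.0361 with the term for the deepest libraries. Buffy stood at 324, 362 and 342 against 193, 355 and 387. Its direction rests on the deepest control library: between the deepest libraries the log2 difference was 0.74, and between the other libraries it was -0.07 (0.14, adjusted p = 0.960, in the authors' deposited table). Fadd, an adaptor of the caspase Dredd, had 0.10 (adjusted p = 0.970, authors' deposited table).

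None of 9 tested regulators of Diap1 and the caspases passed. The ubiquitin-conjugating enzyme gene eff had a log2 fold change of -0.40, the ubiquitin ligase gene dnr1 of -0.34 and the nicotinamidase gene Naam, also on that list, of -0.14 (adjusted p = 0.436, 0.850 and 0.918, authors' deposited table). Of these, eff was called lower by limma with the term for the deepest libraries (adjusted p = 0.0253). Genes of corpse engulfment also showed 0 changes among 9 tested, with a median of -0.09. Here crq, a scavenger receptor gene, had -0.39, the GTPase gene Rac2 -0.76 and prtp, an eat-me signal gene, 0.36 (adjusted p = 0.475, 0.505 and 0.653, authors' deposited table). With that term limma called crq and Rac2 lower (adjusted p = 0.0265 and 0.00247), and with the deepest libraries left out it called Rac2 (adjusted p = 0.0137). The 4 nuclease-related genes of DNA fragmentation had a median of -0.34 and 0 changes: Drep3 was at -0.36, Drep1 at -0.32 and Drep2 at -0.55 (adjusted p = 0.735, 0.867 and 0.882, authors' deposited table). Of 19 autophagy genes 0 changed, with a median of 0.11, and 13 had a positive log2 fold change, as did 5104 of the 11155 tested genes. Atg14 (0.42, adjusted p = 0.347), Atg2 (0.45, adjusted p = 0.545) and Atg101 (-0.35, adjusted p = 0.765) had the lowest p in the authors' deposited table. The same limma term led to calls of Atg14 and Atg2 as higher (adjusted p = 0.0206 and 0.0177).

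**Figure D4:**
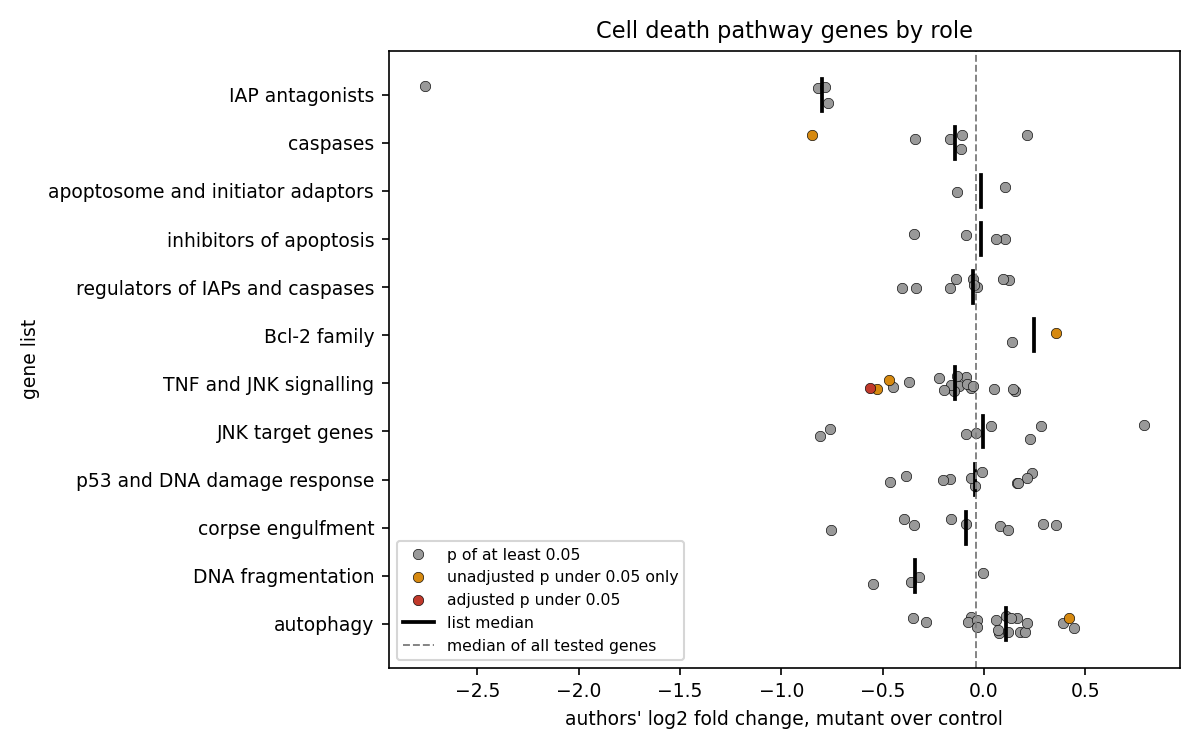
The authors' log2 fold change, mutant over control, of each tested gene (points) by role, with the median of each list (black bars) and of all tested genes (dashed line, -0.04). Tab2, in red, is the 1 gene with an adjusted p under 0.05; orange points passed only at an unadjusted p under 0.05, and the point at -2.76 is grim.

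Markers of the cell types of the head were present in both groups, and some differed between them. All 4 photoreceptor markers fell in the authors' deposited table, ninaE from a mean of 590062 to 185443, and trp, ninaC and chp by 0.92 to 1.09 on the log2 scale. Their summed mean was 275143 in the mutant and 772452 in the control. Of 4 neuronal markers 0 passed the threshold, but all 4 had a lower mean in the mutant, with a sum of 11187 against 19319. The log2 fold changes of elav, nSyb, brp and Syt1 were -0.60, -0.79, -0.71 and -0.86. Their adjusted p-values were 0.920, 0.133, 0.883 and 0.816 (authors' deposited table). All 4 have gene models of at least 4000 bases, the class that shifted with the deepest libraries. Of 4 glial markers alrm fell (-0.79, authors' deposited table), while repo, Gs2 and nrv2 had log2 fold changes of 0.08, 0.11 and -0.09, and the glial sum was 49276 against 47961. Of 4 hemocyte markers NimC1 fell (-4.20, authors' deposited table). The other hemocyte markers had positive log2 fold changes without passing, Hml of 0.67 (adjusted p = 0.0744), He of 0.60 and srp of 0.41 in the authors' deposited table, and the hemocyte sum was 8789 against 6985. Of 4 head fat body markers Lsp2 and FASN1 rose, with a sum of 633558 against 328454. Most of that sum was Yp1, at 537254 against 286449, which was not called (adjusted p = 0.05001, authors' deposited table). Muscle markers had 0 changes among 4, with a sum of 76711 against 73817. Most of that sum was Mhc, at 62976.5 against 54647 (log2 fold change 0.20). The other muscle markers up, wupA and Act88F had -0.47, -0.50 and -0.45 (adjusted p = 0.140, 0.185 and 0.873, authors' deposited table). Gut markers had 0 changes among 3 tested, and Jon65Aiii, listed without a p-value, had means of 69.8 and 1.49. Ovary markers summed to 9.53 and 12.9 and the 1 testis marker with a row to 0.685 and 2.31, the labelled tissue being adult heads. The part of these shifts in the values of the apoptosis genes was not tested.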

How the data were processed

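Reads were processed by the authors; the submitters' processing notes list FastQC, HISAT2, featureCounts and DESeq with dm6 as build, and give neither roles nor versions. Per the file headers, the authors' deposited table holds for each of 13541 genes a mean signal per group (averaged normalized read counts), a log2 fold change, mutant over control, and a p-value with its adjusted p-value. It also gives gene positions and lengths. Recomputing the Benjamini-Hochberg values over 11155 genes gave the authors' adjusted p to within 3.8e-15, and the remaining 2386 genes, listed at 1, count here as untested.

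A count test had been planned for the case of counts per sample; as the table holds means, the main result is what the authors called with a threshold of 0.05 on adjusted p. A group mean adds up the whole reads of 3 libraries, each times a step of its own. The steps were read from low means, and every mean up to 10000 was searched for whole-number combinations. All 13193 mutant and 13225 control means so searched had exactly 1 combination, with a residual of at most 3.8e-11 reads. Steps and recovery were tested on simulated data with means well below those of Diap1, so recovery at its level was not simulated. limma 3.58.1 in R 4.3.3 (trend, robust) was run on log2(normalized count + 1), leaving out genes with a mean under 1; on that scale the change of low genes is understated.

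The 10 genes, the lists and the term for the deepest libraries were chosen with earlier results of these data known. Named genes were the 10, each list gene past the threshold and up to 3 further genes per list by lowest p. No sequences are shown, as the sources used here hold none. Tango7 and sr-ci matched no row, and Decay and upd1 were not tested.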

Additional observations from a re-analysis of the deposited data

How the results depend on the processing

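None of the 10 genes was called in any of the 15 alternatives, which were a looser threshold of 0.1 on the authors' adjusted p, 8 limma settings and 6 limma fits without 1 library each; grim could not be fitted with a mean of at least 10. Across alternatives 144 of 149 log2 fold changes of the 10 genes kept their sign, but many of these are not separate checks. The looser threshold repeats the authors' fold change and could not turn a sign. The main limma fit and those with no filter, with a mean of at least 10 and with the deepest-library term share the same estimate per gene. The 5 exceptions all came from fits without 1 library: Dark, from -0.47 to 0.20, and egr, from -0.20 to 0.023. Of the other genes of the pathway, 1 was called by the authors, beside 4.46% of all tested genes. In its main setting limma called 0, beside 0.992% of the genes it tested. limma also called 0 with a pseudocount of 5 or 0.5, with no filter and with a mean of at least 10. The same 0 was found with equal totals over the recovered genes and without any 1 library. With a term for the deepest libraries 11 of 86 were called, in a fit that calls 16% of all genes. Of these, Tab2, bsk, Traf4, Mkk4, Strica, Rac2, crq and eff were lower, and Debcl, Atg14 and Atg2 higher. With those libraries left out 3 of 86 were called (Tab2, bsk and Rac2), in a fit that calls 7.58% of all genes. Over all tested genes the authors called 497 (622 at 0.1). limma called 115, 124 with a pseudocount of 5, 100 with 0.5, 107 with no filter, 104 with a mean of at least 10, 109 with equal totals, 1855 with the term for the deepest libraries, 865 with the deepest libraries left out, and 23 to 75 without 1 library; the cause was not tested. The share of higher calls was 57.5% in the authors' table and 43.5% with limma, over unlike sets of genes. No paired analysis was possible because the libraries recovered from the group means carry no replicate number. Depth limits grim and rpr, with 21 and 105 reads in all 6 libraries.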
